A study of Drosophila melanogaster with 2 samples.

Results

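Of the 4899 nuclear peaks in the pooled peak list of an Unc-4 chromatin immunoprecipitation experiment, 620 (12.7%) had their summit within 250 bp of an annotated start of a coding gene with alternative promoters. Such a gene had transcript starts more than 1 kb apart and no start of a coding gene on the opposite strand within 500 bp of any of its own starts. Of 13968 coding genes, 1301 met both conditions, 8789 had a single promoter by the same spacing, and 3878 were set aside for an opposite-strand start. The 1301 genes held 3242 promoters, made by opening a new promoter at each start more than 1 kb downstream of the 5'-most start of the promoter before it. A promoter with a summit within 250 bp of one of its starts is called occupied, and any other is called empty. The 620 peaks lay at 548 promoters of 474 genes, 348 of them the first (5'-most) promoter of their gene and 200 a later one. By the same limit 1774 peaks lay at single promoters and 1639 at genes that were set aside.

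Chromatin immunoprecipitation sequencing (ChIP-seq) recovers the DNA cross-linked near a protein, and a peak summit marks the position of highest recovery. Here the protein was Unc-4, a neuronal transcription factor of the homeodomain family, carried as an eGFP fusion by unc-4-GFP flies and recovered with an anti-GFP antibody, although the antibody label names unc-4. Both biological replicates form 1 group of whole Drosophila melanogaster embryos of 6 to 18 h, and their chromatin was sonicated to 200 to 800 bp. The age label itself does not read as this range, so the source name was used for the age. All cells of the embryo were pooled, so more cells bound and stronger binding per cell cannot be told apart, and possible control libraries named in the labels were not analysed here. Nothing in the labels says which cells carried the fusion protein or at what level.

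Alternative promoters let a gene start transcription at separate places under separate control, often giving proteins with different first exons or messages used in different tissues. In flies the promoters of broadly used genes commonly carry the DNA replication-related element, whose core holds TATCGA, is bound by DREF and overlaps the CGATA elements bound by BEAF-32. Promoters of developmentally regulated genes more often carry GA repeats, which are bound by GAGA factor, and homeodomain proteins commonly recognise TAATTA. The question was whether the first, a later or several promoters of such a gene held peaks.

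The 6 genes of highest signal that had TATCGA at an occupied promoter and an empty one beside it are shown first (1 chromosome arm was left out of this choice), to show where the hexamer compared between promoters below lies. They were chosen for holding it, as 40.6% of such occupied promoters do. CG14441, CkIalpha, drn and jigr1 lacked it at the occupied promoter, and CkIalpha held it at the empty one. Each line gives the 150 bases just upstream of a promoter's 5'-most start, read 5' to 3' in the direction of the gene, from RefSeq Release 6 plus ISO1 MT (dm6). Capitals mark TATCGA or its complement TCGATA.
CG2924 promoter 1, occupied (chrX:2270762-2270911, minus strand): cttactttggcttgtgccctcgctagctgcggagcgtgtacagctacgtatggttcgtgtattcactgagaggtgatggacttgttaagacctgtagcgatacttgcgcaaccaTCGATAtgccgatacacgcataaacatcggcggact
CG2924 promoter 2, empty (chrX:2269718-2269867, minus strand): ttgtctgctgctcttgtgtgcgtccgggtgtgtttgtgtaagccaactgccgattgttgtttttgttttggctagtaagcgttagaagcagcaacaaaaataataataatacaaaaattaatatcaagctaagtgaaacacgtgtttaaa
Snx27 promoter 1, occupied (chrX:5738032-5738181, minus strand): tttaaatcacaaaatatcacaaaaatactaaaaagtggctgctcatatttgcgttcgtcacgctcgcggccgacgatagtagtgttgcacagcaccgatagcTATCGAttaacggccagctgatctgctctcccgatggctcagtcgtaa
Snx27 promoter 2, empty (chrX:5723571-5723720, minus strand): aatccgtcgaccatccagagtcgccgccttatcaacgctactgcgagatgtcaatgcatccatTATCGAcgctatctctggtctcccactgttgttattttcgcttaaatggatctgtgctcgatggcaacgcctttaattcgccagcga
bun promoter 1, occupied (chr2L:12546612-12546761, minus strand): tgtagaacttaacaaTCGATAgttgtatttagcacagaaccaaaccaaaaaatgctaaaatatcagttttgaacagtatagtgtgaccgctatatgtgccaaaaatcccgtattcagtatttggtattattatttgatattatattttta
bun promoter 2, empty (chr2L:12540903-12541052, minus strand): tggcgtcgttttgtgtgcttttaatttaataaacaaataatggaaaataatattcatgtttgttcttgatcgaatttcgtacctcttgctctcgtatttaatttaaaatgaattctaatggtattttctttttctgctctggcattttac
CrebB promoter 2, occupied (chrX:18370834-18370983, plus strand): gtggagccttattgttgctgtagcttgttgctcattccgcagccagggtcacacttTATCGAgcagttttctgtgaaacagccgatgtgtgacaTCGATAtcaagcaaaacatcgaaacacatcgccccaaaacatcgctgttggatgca
CrebB promoter 1, empty (chrX:18366207-18366356, plus strand): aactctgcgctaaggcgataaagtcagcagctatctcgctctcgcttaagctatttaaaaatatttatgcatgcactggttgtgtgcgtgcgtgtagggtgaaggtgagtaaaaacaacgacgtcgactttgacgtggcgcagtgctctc
mnb promoter 1, occupied (chrX:17887223-17887372, minus strand): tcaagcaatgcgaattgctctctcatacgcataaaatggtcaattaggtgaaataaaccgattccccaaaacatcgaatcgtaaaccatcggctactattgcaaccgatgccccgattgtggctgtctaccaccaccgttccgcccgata
mnb promoter 2, empty (chrX:17875041-17875190, minus strand): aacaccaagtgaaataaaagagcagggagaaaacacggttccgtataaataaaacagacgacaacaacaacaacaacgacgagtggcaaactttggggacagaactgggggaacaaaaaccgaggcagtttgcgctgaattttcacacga
Oatp30B promoter 1, occupied (chr2L:9521060-9521209, plus strand): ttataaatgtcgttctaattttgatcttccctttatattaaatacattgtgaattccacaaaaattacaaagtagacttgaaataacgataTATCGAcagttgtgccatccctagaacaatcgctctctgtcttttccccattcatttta
Oatp30B promoter 2, empty (chr2L:9534598-9534747, plus strand): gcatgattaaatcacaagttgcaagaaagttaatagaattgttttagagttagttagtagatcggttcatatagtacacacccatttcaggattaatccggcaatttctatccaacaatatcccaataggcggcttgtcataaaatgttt
In CG2924, bun and Oatp30B the occupied stretch held the hexamer and the empty one did not. In CrebB, which encodes a CREB transcription factor, the occupied promoter was the second and held 2 copies, against none upstream of the empty first promoter. The empty promoter of Snx27, a sorting nexin gene, held a copy as well. At mnb, which encodes the Minibrain kinase, the hexamer lay in the 300 bp window used below but outside the 150 bases shown.

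The first promoter was the one most often occupied. In the pooled list 26.7% of first promoters (348 of 1301, 95% Wilson interval 24.4 to 29.2%) and 9.38% of last promoters (122 of 1301, 7.91 to 11.1%) held a summit. Among the same genes, 309 had the first occupied and the last empty, and 83 the reverse (exact McNemar test, two-sided, p = 1.028e-31). For comparison, 16.9% of all alternative promoters, 17.7% of the promoters of single-promoter genes and 26.3% of the promoters of all coding genes were occupied. The last share includes genes with an opposite-strand start nearby, where 1 peak can serve both genes. The tests here run across genes, which are not replicates, so each p describes these libraries, and the intervals cover counting error only.

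The order held in each replicate list. Replicate 1 occupied 20.4% of first and 5.23% of last promoters, against 21.1% of all coding promoters. Replicate 2 occupied 17.5% and 4.92%, against 18.2% of all coding promoters. The exact McNemar p was 9.475e-32 by replicate 1 and 5.453e-26 by replicate 2. In both lists, then, a first promoter was occupied about as often as the promoters of all coding genes, and a last promoter far less often. The share of all coding genes again includes those with an opposite-strand start nearby. Beside single-promoter genes, first promoters were occupied more often in the pooled list (26.75% against 17.7%), and the single-promoter share was not taken by replicate.

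In the pooled list shares were lower at each later position in genes with 2 to 4 promoters. In the 928 genes with 2 promoters, 27.0% of first and 9.70% of second promoters were occupied, with 225 genes holding the first alone and 64 the second alone (exact McNemar test, p = 3.64e-22). Genes with 3 promoters had 24.4%, 13.3% and 8.44% occupied from first to last, and genes with 4 had 24.7%, 16.9%, 11.2% and 5.62%. By the replicate 2 list the order did not hold throughout in the genes with 4, where 6.74% of second and 7.87% of the third promoters were occupied, with overlapping intervals. In the 59 genes with 5 or more promoters the first was highest, at 33.9%, and the others lay between 6.78% and 15.3% with overlapping intervals.

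**Figure D1:**
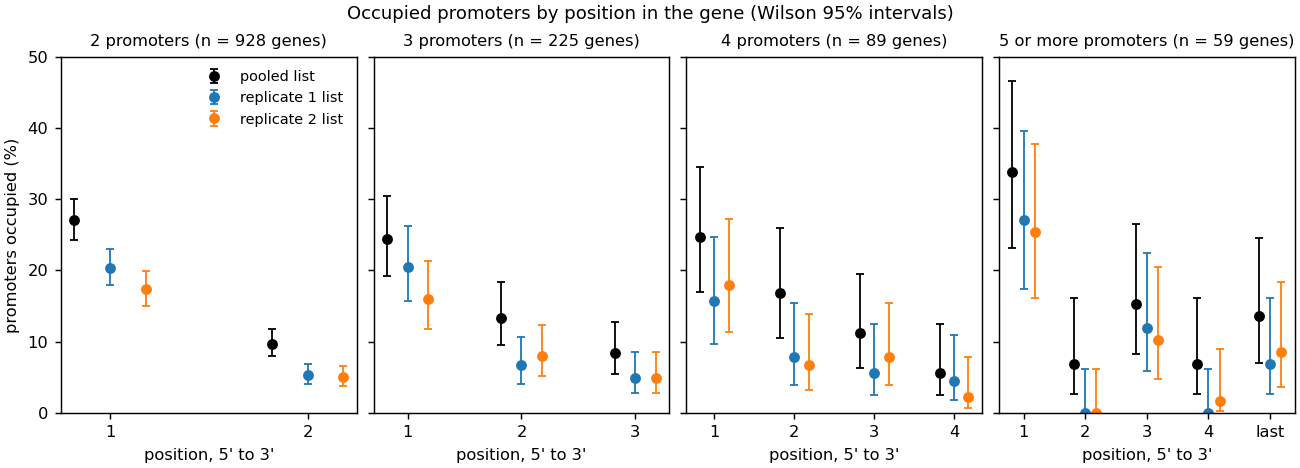
Share of promoters occupied (y axis, percent) by position from the 5' end (x axis), in genes with 2, 3, 4 and 5 or more promoters, for the pooled list and each replicate list, with bars for Wilson 95% intervals. The first position is highest in every panel and list, and in genes with 2 promoters the pooled values are 27.0% and 9.70%.

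In most genes no promoter or 1 was occupied. No promoter was occupied in 827 genes (63.6%), the first alone in 288 (22.1%), a single later one alone in 117 (8.99%), and more than 1 promoter in 69 (5.30%). At least 1 promoter was thus occupied in 36.4% of the genes by the pooled list, in 26.2% by the replicate 1 list and in 23% by the replicate 2 list. Where exactly 1 was occupied it was a later one in 117 of 405 genes, or 28.9% (24.7 to 33.5%). Of the 69 genes with several, 65 had 2 occupied promoters, 3 had 3 and 1 had 4.

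Occupancy of the first promoter told little about that of the others. A later promoter was occupied in 17.2% of the genes whose first promoter was occupied (60 of 348) and in 13.2% of the rest (126 of 953). In genes with 2 promoters these shares were 10.4% (26 of 251, 7.17 to 14.7%) and 9.45% (64 of 677, 7.47 to 11.9%), whose intervals overlap. Distance from the first promoter also made little difference to later ones, of which 10.05% were occupied at 1 to 2 kb, 9.54% at 2 to 5 kb, 10.2% at 5 to 10 kb, 11.0% at 10 to 20 kb, 10.6% at 20 to 50 kb and 11.7% beyond 50 kb. The intervals of all of these bins overlap.

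Promoters with more annotated transcripts were occupied more often. Of first promoters, occupancy went from 15.3% with 1 transcript to 27.5% with 2, 39.1% with 3 to 4 and 42.0% with 5 or more. Of later promoters it went over the same classes from 5.77% to 14.6%, 15.9% and 26.4%, and so stayed below first promoters in every class. When the strongest occupied promoter of a gene was set beside its 5'-most empty one, the occupied promoter had more transcripts in 255 genes and fewer in 81, with 112 ties (exact sign test, p = 4.166e-22). Promoters with more separate starts cover more sequence, from 501 bp to 1399 bp at first and 1451 bp at later ones. The shares by transcript class were not adjusted for this. With the 5'-most start only, the occupied promoter had more transcripts in 75.4% of 321 genes without ties (exact sign test, p = 2.212e-20). Restricting the first-against-last comparison to the 444 genes with equally many transcripts at both left a smaller difference of 10.8 percentage points (exact McNemar test, p = 9.699e-07).

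**Figure D2:**
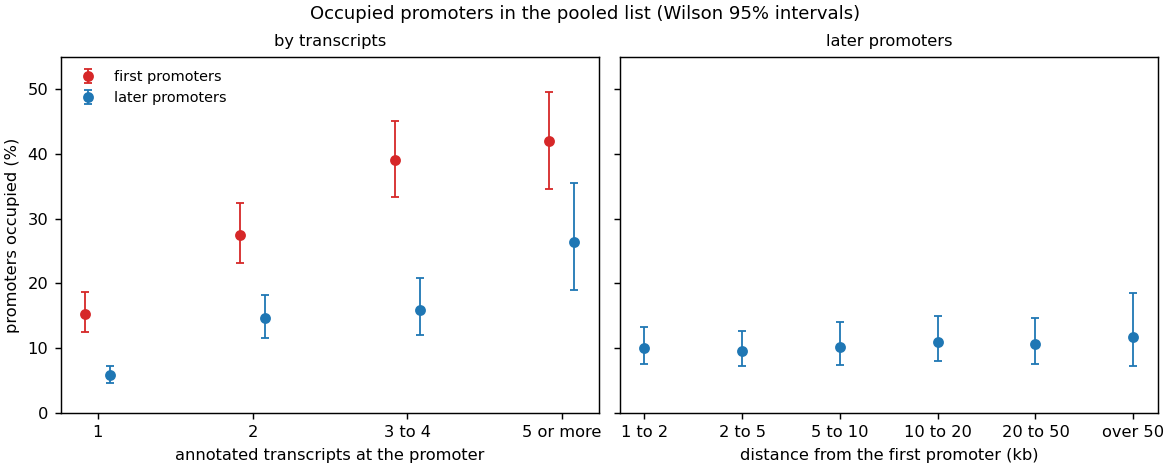
Share of promoters occupied in the pooled list (y axis, percent) by the number of annotated transcripts for first and later promoters, and, for later promoters, by distance from the first in kb, with bars for Wilson 95% intervals. Occupancy rises from 15.3% to 42.0% at first and from 5.77% to 26.4% at later promoters with transcript number, and lies between 9.54% and 11.7% at every distance.

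Signals at later promoters were lower in the median. The authors' signal, a value on a scale the files do not state, to be compared within 1 list, had a median of 124 at occupied first promoters (lowest 19.3, highest 1156) and 86.6 at later ones (17.3 to 806). The median was 151 at single-promoter genes and 107 over all nuclear peaks. Replicate support followed the same order. Both replicate lists held a summit at 54.9% of the occupied first promoters and 32.0% of the later ones, and neither list did at 19.8% and 33.5%. The authors' conservative pooled list held 84.8% and 77.0% of them.

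Within genes that had both the first and a later promoter occupied, the first was not reliably the stronger. It had the higher pooled signal in 32 of 60 genes (exact sign test, p = 0.6989). By replicate 1 it was higher in 36 of 60 (p = 0.155, exact sign test) and by replicate 2 in 33 of 56 (p = 0.2288, exact sign test). The later value was the highest of the occupied later promoters, a choice that favours later ones. In genes with 2 promoters, where no such choice arose, the first was higher in 13 of 26. In all 69 genes with several occupied promoters the highest signal was a median of 1.69 times the next, with a range of 1.01 to 21.3. The same promoter was strongest in both replicates in 50 of the 69. CG6424 and CG46315 had identical signals in every list, from shared peaks, and count as separate genes in these tests and in the 69.

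**Figure D3:**
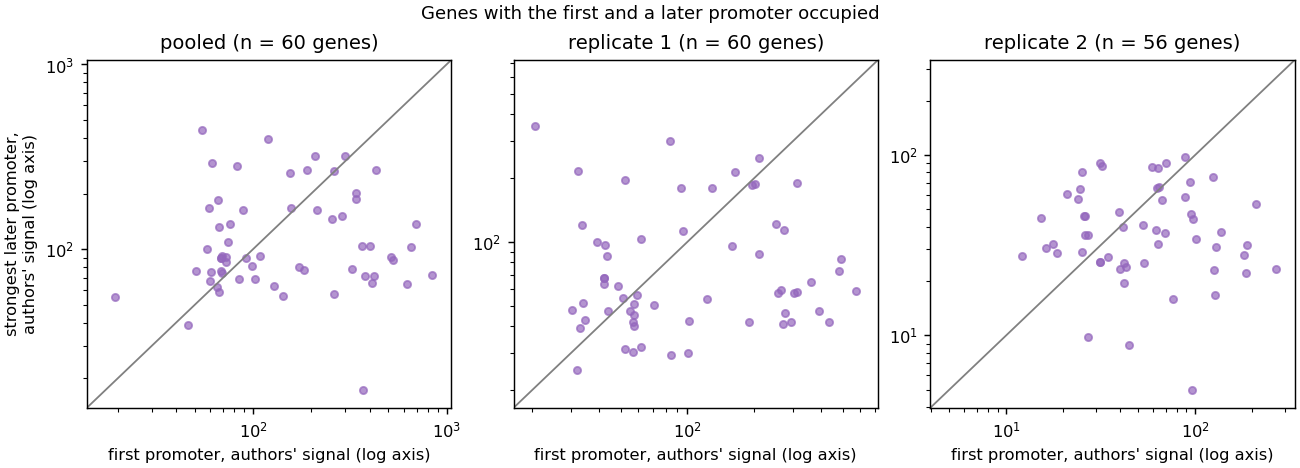
Authors' signal at the first promoter (x axis, log) against that at the strongest later promoter (y axis, log) in genes with both occupied, 1 point per gene, for the pooled list and for each replicate's ranked list, with a line of equality. Points fall on both sides of the line, with the first higher in 32 of 60 genes in the pooled list.

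The summits sat just upstream of the start in both classes. The strongest summit lay at a median of 44 bp upstream of the nearest start at first promoters and 57 bp at later ones, and it was upstream at 73.0% and 74.0%. It lay within 100 bp of the start at 72.7% of first and 62.0% of later promoters. Only 31 of the 548 strongest summits lay more than 200 bp from the start, and widening the limit to 500 bp added 51 promoters. A start of another coding gene was at least as close to the summit at 37 of the 548, and 11 of the 620 peaks were counted for more than 1 alternative-promoter gene.

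An empty promoter was not always without signal. A summit of the pooled ranked list, which also holds peaks below the authors' threshold, lay at 41.7% of empty first and 33.9% of empty later promoters, with median signals of 36.3 and 29.2. The highest such signals were 360 at a first and 642 at a later promoter, so empty means here that no peak of the thresholded list was there. A ranked summit past the authors' IDR threshold of 0.01 (the irreproducible discovery rate) lay at 12 of the 2694 empty promoters, 6 first and 6 later. Why these are not in the thresholded list is not given in the sources used here. With these 12 counted as occupied, the first-against-last difference was 17.6 percentage points and the TATCGA difference described below 30.0. The conservative list held a summit at 324 first and 176 later promoters, of which 295 and 154 were occupied in the pooled list. Some promoters called empty thus held a conservative-list peak. By that list the first-against-last difference was 16.2 percentage points. Of the 117 genes with a single later promoter occupied, 57 had a summit of the pooled ranked list at the first promoter. The pooled class was found in both replicate lists for 156 of the 288 first-only genes (54.2%), 34 of the 117 later-only genes (29.1%) and 15 of the 69 with several (21.7%). Of the 245 genes occupied in both replicate lists, 219 fell in the same class (first only, later only or several), and 5 changed between first only and later only. Genes occupied in 1 list alone are not part of this count, and with either replicate list alone the later-only genes numbered 75 (replicate 1) and 68 (replicate 2) and those with several 26 and 30.

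The 8 first promoters of highest signal, given here from the top, belonged to genes of varied function. CG2924 had a pooled signal of 1156, with 836 in replicate 1 and 320 in replicate 2, 51 bp upstream of its start (peak at chrX:2270567-2271037). Snx27 followed at 1117, with 788 and 330 (chrX:5737789-5738318), and CG14441 at 1012, with 750 and 257 (chrX:6699102-6699593). These exceeded the nuclear medians of 116 and 63.4 of the replicate 1 and replicate 2 thresholded lists several times over. Next came Gp150 at 939, which encodes a transmembrane protein with leucine-rich repeats, NAT1 at 853, an eIF4G-related translation factor, and bun at 845, a TSC22-family regulator. mnb at 796 and CkIalpha, casein kinase I alpha, at 791 completed the 8. Of these 8 genes, bun alone had a later promoter occupied too.

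A smaller set was occupied strongly at a later promoter alone. CrebB had a signal of 806 at the second of its 2 promoters, 4627 bp downstream of the first, with 604 in replicate 1 and 211 in replicate 2 (chrX:18370684-18371229). Its first promoter had a signal of 63.3 in the pooled ranked list and was not in the thresholded one. Ptp61F, which encodes a tyrosine phosphatase, had a signal of 700 at the third of 4 promoters, 124658 bp from the first, with 538 and 185.5 in the replicates (chr3L:1350440-1350944). The last promoter, about 1 kb further on, was empty. aux, the auxilin gene of clathrin uncoating, had 692 at its second of 2 promoters, with 482 and 221 (chr3R:4220745-4221150). drn had 678 at the second of 3, with 581 and 96.7 (chr3R:9341443-9341888), and su(w[a]), a splicing regulator, had 638 at the second of 2, with 465 and 177 (chrX:1033042-1033428). The set went on with CG4622 at 623, jigr1 at 520 with 3 summits at the last of its 3 promoters, and Orai, a store-operated calcium channel, at 478. At Orai the list of replicate 2 also held a summit at the first promoter, with a signal of 36.2.

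Genes with several occupied promoters spanned a median of 11745 bp from first to last promoter, against 4967 bp over all 1301. They also had more promoters, a mean of 3.59 against 2.41 in genes with none occupied. A gene with more promoters has more places to be occupied, and neither this contrast nor the span was adjusted for that. The share with several was 2.80% of genes with 2 promoters, 17.9% with 5, 14.3% with 6 and 37.5% of the 8 genes with 7 (13.7 to 69.4%). SNF4Agamma, the gamma subunit of AMP-activated kinase, had 4 of 9 promoters occupied, promoter 1 with 287, promoter 3 with 150, promoter 5 with 92.0 and promoter 8 with 94.4. Promoter 5 was in the replicate 2 list alone (33.4) and promoter 8 in the replicate 1 list alone (66.0). milt, which encodes the Milton adaptor that links mitochondria to kinesin, had the first 3 of 4 occupied, with 342, 203 and 185, each in both replicate lists. Pfrx, an enzyme of glycolytic control, had promoters 1 (298), 4 (55.1) and 5 (320) of 5 occupied, and promoter 4 was in neither replicate list. A start of CG14200 lay within 250 bp of the summit at promoter 1. shot, the spectraplakin that links actin to microtubules, had promoters 1 (157), 2 (168) and 4 (132) of 4 occupied in both replicates. Top1, topoisomerase I, had both of its promoters occupied at 699 and 137, and bun had the first at 845 and the last of 6 at 72.2, 85355 bp away.

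**Figure D4:**
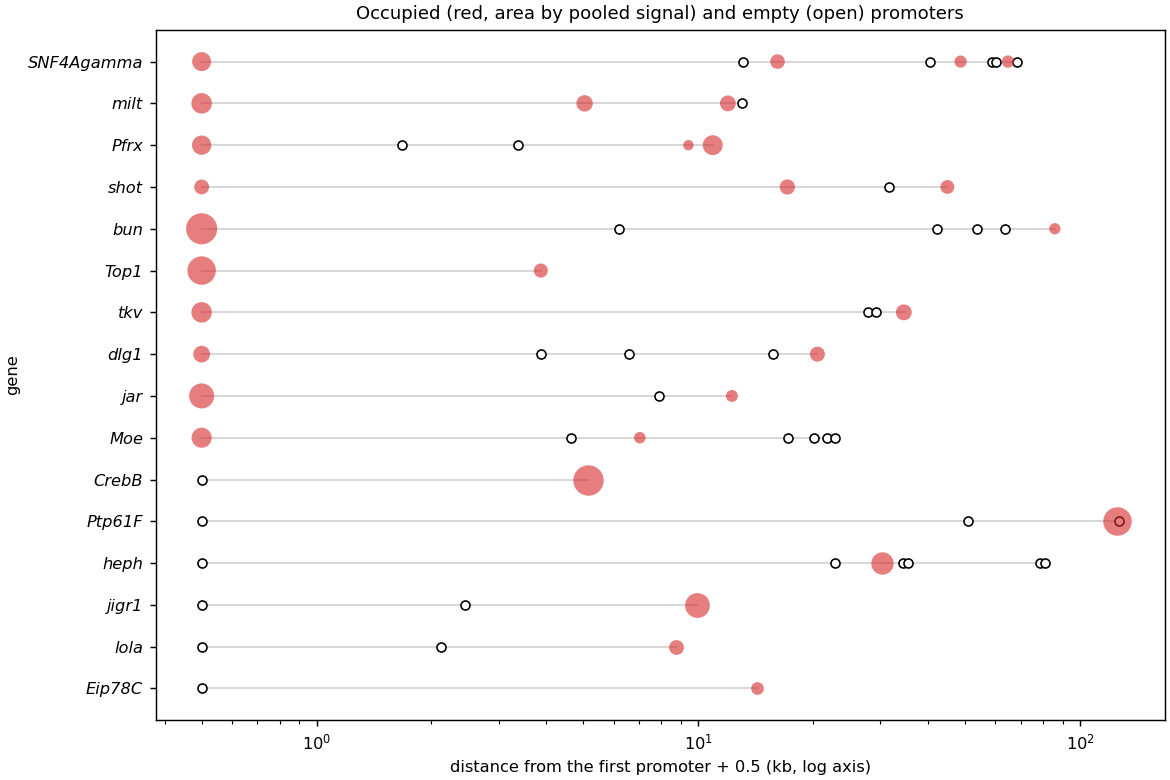
Promoters of named genes (rows) by distance from the first promoter plus 0.5 kb (x axis, kb, log), with occupied promoters as red discs whose area grows with the pooled signal and empty promoters as open circles. SNF4Agamma shows 4 occupied promoters of 9, and the last 6 genes are occupied away from the first promoter only.

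The gene lists held both occupied and empty genes. In the ecdysone response, by which the moulting hormone drives nuclear receptors, 5 of 9 genes were occupied, against 36.4% of all alternative-promoter genes. EcR, the receptor itself, had promoters 2 (56.2) and 3 (72.8) of 3 occupied, Hr3 the last of 3 (95.5), Eip78C the last of 2 (104) and Eip75B promoter 6 of 7 (61.0), and Hr4 its first (83.9). br, Eip74EF, ftz-f1 and Eip93F were empty. So 4 of the 5 occupied genes had later promoters only, all with signals below the nuclear median of 107. Over all alternative-promoter genes, 126 of the 474 occupied ones had later promoters only. The Hr3 summit lay 194 bp upstream of its start, with a start of CG46321 within 250 bp of the summit. Replicate 2 had no ranked summit at that Hr3 promoter.

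Among BTB and zinc-finger chromatin factors 4 of 8 genes were occupied, against 36.4% of all alternative-promoter genes. lola, which has a large set of isoforms, was occupied at the last of 3 promoters (157, with 107 and 49.3 in the replicates), and Trl, the GAGA factor gene, at its second of 2 (102, with 57.7 and 46.0 in the ranked lists). chinmo was occupied at its first promoter (74.8), which was in neither replicate's thresholded list but was in the conservative list. ttk was occupied at its first (19.3) and second (55.3) promoters. The signal at the first was the lowest of any occupied first promoter, and replicate 2 had no ranked summit there. psq, ab, fru and rib were empty. The Trl summit lay 244 bp upstream of its start, near the limit of 250 bp, and a start of CG42507 was within the same distance.

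Patterning and lineage factors were occupied in 7 of 14 genes. Mef2, the muscle differentiation factor, had 361 at the first of 3 promoters, with 287 and 83.9. kay, the fly Fos gene, was occupied at promoters 2 (79.8) and 3 (106) of 4, and cnc, the Nrf-related factor, at promoters 1 (92.3) and 6 (90.0) of 7. pnt and pros were occupied at their last promoter alone, at 66.7 and 60.1, and aop and Pdp1 at the first alone, at 70.4 and 71.8. Antp, hb, hth, grh, zfh1, run and vri were empty.

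Kinases, phosphatases and receptors were occupied in 9 of 11 genes, of which 4 had several promoters occupied. Over all occupied alternative-promoter genes, 69 of 474 (14.6%) had several. The 11 genes held 42 promoters, and the count was not adjusted for promoter number. tkv, a receptor for the Dpp growth factor, had 342 at its first and 187 at the last of 4 promoters, 34022 bp away, with 273 and 114 in replicate 1 and 88.4 and 58.3 in replicate 2. Egfr had both promoters occupied at 84.3 and 69.3, and sgg, the fly GSK-3 kinase, promoters 1 (72.8) and 4 (90.9) of 8. Src64B (166), Lar (78.8) and Src42A (77.6) were occupied at the first alone, and par-1 (77.9) at the last of 3 alone. InR was empty by the thresholded list, although its first promoter had a signal of 123 in the pooled ranked list.

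Cytoskeleton and adhesion genes included 5 occupied of 8, and 4 of the 5 had several promoters occupied. Several were occupied in 14.6% of all occupied alternative-promoter genes. The 8 genes held 32 promoters, and this count was not adjusted for promoter number either. jar, which encodes myosin VI, had 532 at its first and 87.3 at the last of 3. Moe, the actin-membrane linker Moesin, had 326 at its first and 77.9 at promoter 3 of 7. dlg1, a scaffold of septate junctions and synapses, had 214 at its first and 162 at the last of 5, and cher, filamin, had 87.2 at promoter 3 of 5. Tm2, tau and futsch were empty. These lists hold 8 to 14 such genes each, so their shares are descriptions set beside 36.4% (any occupied) or 14.6% (several among occupied).

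Ion channel and synapse genes were occupied in 2 of 10, against 36.4% of all alternative-promoter genes. Both were occupied at the first promoter alone, as were 288 of the 474 occupied alternative-promoter genes. rut, an adenylyl cyclase, had 482, with 336.5 in replicate 1 and 144 in replicate 2, and dnc, a phosphodiesterase, had 70.9 at the first of 8. The dnc summit lay 202 bp upstream of its start. That promoter was occupied in the replicate 2 list alone (40.7) and not in the conservative list. para, Sh, slo, cac, Syt1, brp, unc-13 and Rdl were empty. RNA-binding proteins were occupied in 6 of 14. heph, the polypyrimidine tract-binding protein, had 416 at promoter 3 of 7, where 14 transcripts start, with 265 and 149 in the replicates. mbl (86.1) and pum (52.4) were occupied at the second promoter, and orb2 (173), Sxl (60.8) and msi (46.6) at the first. A start of CG43783 lay within 250 bp of the orb2 summit. Rbfox1 was empty by the pooled list, but its second promoter had a signal of 104 in the conservative list.

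Sequence at the occupied promoters was compared over the 300 bp from 250 before to 50 after the 5'-most start, for 7 hexamers read on both strands. The DRE-type hexamer TATCGA was held by 25.4% of the 16555 promoters of all coding genes and the GA repeat GAGAGA by 14.3%. The others were GTCACA, part of Motif 1 (16.2%), the TATA box form TATAAA (43.2%), the initiator form TCAGTT (26.9%), the E-box CAGCTG (17.6%) and the homeodomain site TAATTA (19.3%). A match to TATCGA can overlap its own complement, the other hexamers were searched independently of it, and each promoter was counted once per hexamer.

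TATCGA was more frequent at the occupied promoter within genes. In 448 genes with an occupied and an empty promoter, 40.6% of occupied and 10.3% of empty promoters held it, with 160 genes holding it at the occupied one alone and 24 at the empty one alone (exact McNemar test, adjusted p over 7 hexamers = 5.104e-25). The difference passed in each of 19 alternative settings, at 11.4 to 58.7 percentage points. Where it was present at an occupied promoter, the copy nearest the summit lay a median of 23 bp from it (quartiles 9 and 60.8). TAATTA, the homeodomain hexamer, was held by 14.96% of occupied and 15.62% of empty promoters (53 against 56 genes, adjusted p = 0.8482, exact McNemar test).

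First and later promoters differed in which hexamer they held. TATCGA was in 49.4% of occupied first promoters (44.2 to 54.7%) and 11.96% of empty ones, and in 19.0% of occupied later promoters (14.2 to 25%) and 10.8% of empty ones. GAGAGA was in 22.7% of occupied first promoters and 22.5% of empty ones, but in 46.5% of occupied later promoters (39.7 to 53.4%) and 23.6% of empty ones. At single-promoter genes 57.1% of occupied promoters held TATCGA and 11.4% GAGAGA.

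**Figure D5:**
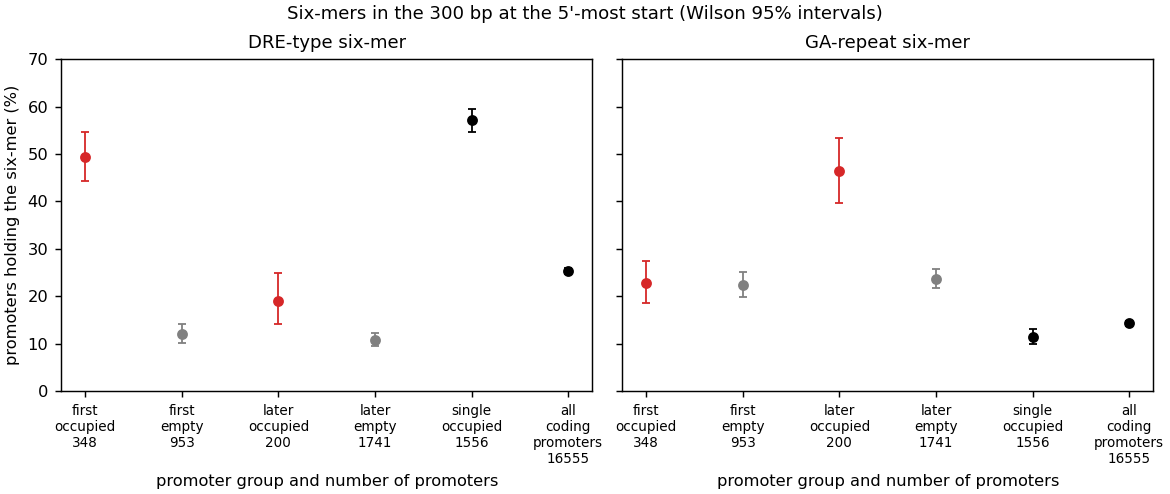
Share of promoters (y axis, percent) holding TATCGA (DRE-type, left) or GAGAGA (GA repeat, right) in the 300 bp at the 5'-most start, by promoter group with the number of promoters (x axis) and bars for Wilson 95% intervals. TATCGA is highest at occupied first promoters (49.4%) among the alternative promoters, and GAGAGA at occupied later promoters (46.5%).

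The split was then tested within genes, a comparison chosen after seeing the data. It used the same promoters and libraries, so its p-values describe the contrast above and give no independent support. The replicate lists come from these same libraries. Where the compared occupied promoter was the first (307 genes), GAGAGA was held by 22.5% of occupied and 25.1% of empty promoters. Where it was a later one (141 genes), the shares were 47.5% and 18.4%, with 56 genes holding it at the occupied promoter alone and 15 at the empty one alone (adjusted p = 7.29e-06, exact McNemar test). The difference between the 2 sets of genes had an adjusted p of 0.000124 (two-sided Fisher's exact test on the genes with the hexamer at 1 promoter alone, adjusted over 7 hexamers). By the replicate 1 list the later-promoter shares were 39.0% and 13.4% in 82 genes, and by the replicate 2 list 44% and 20% in 75. Where the first was occupied, GAGAGA was lower at the occupied promoter by replicate 1, at 18.25% against 27.38% (adjusted p = 0.03852, exact McNemar test). By replicate 2 these shares were 17.84% and 23% (adjusted p = 0.3877, exact McNemar test). The difference between first and later had adjusted p = 4.249e-05 by replicate 1 and 0.005542 by replicate 2 (Fisher's exact test). TATCGA was higher at the occupied promoter in both sets, by 39.1 and 11.4 percentage points, and the test on the genes with it at 1 promoter alone did not pass between the sets (adjusted p = 0.2171, Fisher's exact test).

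Signal moved with both hexamers. Of occupied first promoters with a signal above the nuclear median of 107, 74.5% held TATCGA and 11.7% GAGAGA, and of those at or below it 17.1% and 36.8%. Of occupied later promoters above the median 44.4% held TATCGA and 31.7% GAGAGA, and of those at or below it 7.30% and 53.3%. So GAGAGA was more frequent at later than at first promoters in both signal classes, and TATCGA less frequent. At the 64 later promoters in both replicate lists 40.6% held TATCGA and 34.4% GAGAGA, against 71.2% and 15.2% of the 191 first promoters in both lists. The part of signal in the difference was not tested beyond these values.

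The same contrast was seen at the summit itself. Within 50 bp of it, 37.6% of first and 15.5% of later strongest summits had TATCGA, against 32.1% of all nuclear peaks. GAGAGA was there at 5.75% of first and 25% of later summits, against 6.80% of all nuclear peaks. In genes with several occupied promoters the hexamer TATCGA was at all of them in 10, at some in 25 and at none in 34 of 69.

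The 3 later promoters of highest signal with GAGAGA within 50 bp of the summit and an empty first promoter show this second kind. They were chosen after the values were seen, and again 1 chromosome arm was left out. Each line gives 121 bases centred on the summit, read in the direction of the gene (RefSeq Release 6 plus ISO1 MT, dm6), and capitals mark GAGAGA or its complement TCTCTC.
ush promoter 2 (chr2L:490642-490762, plus strand): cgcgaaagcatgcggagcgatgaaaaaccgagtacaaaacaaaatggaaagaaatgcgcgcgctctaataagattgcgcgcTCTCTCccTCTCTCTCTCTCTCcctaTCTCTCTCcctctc
shep promoter 5 (chr3L:5184924-5185044, minus strand): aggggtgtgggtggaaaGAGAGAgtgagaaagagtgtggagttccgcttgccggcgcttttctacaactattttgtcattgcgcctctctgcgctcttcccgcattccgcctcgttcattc
CG13917 promoter 2 (chr3L:1586592-1586712, plus strand): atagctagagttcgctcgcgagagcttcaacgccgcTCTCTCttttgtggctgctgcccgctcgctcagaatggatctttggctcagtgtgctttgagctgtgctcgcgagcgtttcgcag
ush, a GATA factor cofactor, had a signal of 155 at its second of 3 promoters, with 112 and 45.0 in the replicates, and no ranked summit at the first, 14615 bp upstream. Its last promoter was occupied as well, at 117, with 69.7 and 41.5. shep, an RNA-binding protein gene, had 135 at the last of 5, with 72.6 and 64.0, and a ranked signal of 49.1 at the first. CG13917 had 125 at its second of 2, with 54.9 and 73.1, and a ranked signal of 47.9 at the first. CG13917 alone of the 3 also held TATCGA in its 300 bp window. The empty first promoter of shep held GAGAGA in its own 300 bp window too, and those of ush and CG13917 did not.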

How the data were processed

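The data were ChIP-seq peak lists on dm6 from 2 biological replicates of 1 group. Per the deposited text descriptions, the lists derive from replicate alignments and 2 further files of unstated role for thresholded lists, 1 for ranked lists. The aligner is not given in the sources used here. Neither is the peak caller. The deposited lists give the authors' signal per peak, whose scale is not stated, so signals were compared within a list only. The authors' ranked lists also give the −log10 of the global irreproducible discovery rate (IDR), which is a rate of the false-discovery type and not a p-value, and the deposited thresholded lists hold peaks ordered and filtered by it. The other deposited quantity used is the summit offset in bp from the peak start. The lists hold no read counts, which leaves the depth unknown, and intervals cover counting error only.

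Peaks on the nuclear chromosomes were placed on coding transcript starts of the Ensembl BDGP6.54 annotation (release 115), and sequence came from RefSeq Release 6 plus ISO1 MT. Every peak end lay within the reference chromosome. A summit went to the nearest promoter of each gene within 250 bp. The replicate values beside a named promoter are the highest signals of ranked summits there, and a promoter was called in a replicate from its thresholded list. Paired shares were tested with exact McNemar tests, paired values with exact sign tests and differences between gene sets with Fisher's exact test, all two-sided, with Benjamini-Hochberg adjustment over the 7 hexamers and a threshold of 0.05. Occupied and empty promoters of a gene were its strongest occupied and its 5'-most empty one. Code ran in Python 3.11.15 with numpy 2.4.6, scipy 1.17.1 and matplotlib 3.10.9, and was tested on simulated peaks.

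Named genes were the 8 highest signals at first and at later promoters, the 8 highest later-only genes, the 6 with most occupied promoters, and per list up to 3 occupied and 2 empty members. Sequences were printed for genes outside chromosome arm 2R. Other listed genes were named to complete their list. The members, lists and hexamers were chosen with earlier results of these data known. Alternatives changed the peak list (including ranked peaks at an IDR of at most 0.01), the signal limit, the summit limit, the promoter spacing, the neighbour rule, the transcripts and the hexamer window.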

Additional observations from a re-analysis of the deposited data

Results flagged for a closer look

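For 4 hexamers the occupied-against-empty balance changed between genes whose occupied promoter was the first and genes where it was a later one. The two-sided Fisher's exact test, adjusted over 7 hexamers, used the genes with the hexamer at 1 promoter alone. This split was chosen after seeing the data, and the percentage points below were not themselves tested. TATCGA differed by 39.1 and 11.4 percentage points but did not pass (adjusted p = 0.2171, Fisher's exact test). GAGAGA differed by −2.61 percentage points in the 307 genes with the first promoter occupied and by 29.1 in the 141 with a later one (adjusted p = 0.000124, exact), and the test also passed in each replicate list. GTCACA differed by 8.47 and −4.96 (adjusted p = 0.031), TCAGTT by −7.82 and 7.80 (adjusted p = 0.031) and TAATTA by 3.26 and −9.22 (adjusted p = 0.031, exact). Of these 3, TCAGTT passed again by the replicate 1 list (adjusted p = 0.0491) and none passed by replicate 2 (adjusted p from 0.204 to 0.498), all by the same exact test.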

How the results depend on the processing

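The first-against-last difference kept its direction and stayed past the threshold in all 15 alternatives tried (10.8 to 19.0 percentage points), and so did TATCGA in all 19 (11.4 to 58.7). Of 261 recomputed values, 10 newly passed, 16 reversed, 8 counts moved and none fell below the threshold. The other 227 showed no such change, with counts within 1.5-fold. Limiting starts to protein-coding transcripts left the first-against-last (17.4) and TATCGA (30.4) differences as they were, so that setting was no separate check. With signals above the nuclear median alone, first-only genes fell to 182, later-only genes to 45 and genes with several to 15, and with a 100 bp limit the last were 30. From 1 replicate list alone, later-only genes ranged from 68 to 75 and genes with several from 26 to 30. The share of genes with the first promoter stronger became 48.1% at the 100 bp limit. Of occupied minus empty differences in percentage points, GAGAGA (7.37 over all 448 genes, adjusted p = 0.0516, exact McNemar test) was −0.599 to 2.43 from 1 replicate list and −5.49 above the median signal. It newly passed with promoters opened at 500 bp (7.95), with no other coding start within 500 bp (8.0), with the 5'-most start only (7.89) and without peaks closer to another gene (8.06). With the 100 bp hexamer window, GTCACA passed at 6.70, TAATTA at −4.69 and TATAAA became −3.79. Above the median signal, CAGCTG became −3.38 and TAATTA 1.27, and TAATTA ranged from −1.04 to 1.497 from 1 replicate list. At least 1 occupied promoter was found in 23% to 26.2% of genes from 1 replicate list, against 36.4%. The following were chosen after seeing the data. Ranked peaks past the IDR threshold changed no call. With the first promoter as the occupied one, GTCACA was 8.47, GAGAGA −2.61 and TAATTA 3.26. With a later one, GAGAGA was 29.1 (25.6 by replicate 1, 24 by replicate 2), GTCACA −4.96 (−8.54 by replicate 1), TATAAA −6.38 (−1.33 by replicate 2) and TCAGTT 7.80 (9.76 by replicate 1, 8.0 by replicate 2). Replicate lists and that signal limit hold fewer peaks, and the cause of the other changes was not tested. No paired analysis was possible because there was 1 group.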
